A study of Mus musculus with 2 samples.

Results

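The genes described here are 37 mouse genes of fatty acid oxidation, taken by name from a list of enzymes of the pathway with no threshold on measured values, out of 21670 protein-coding genes of the autosomes and the X chromosome. Earlier results of these data were known when this list and that of related genes below were chosen. The 37 genes comprise 21 of mitochondrial enzymes, 7 of peroxisomal enzymes and 5 long-chain acyl-CoA synthetases (Acsl). The 4 others, Cpt1c, Acad11, Acad12 and Eci2, belong to neither compartment alone or are not firmly placed. Chromatin accessibility was measured by DNase-seq in whole kidney tissue of B6CASTF1/J mice, all female and 8 to 10 months old. DNase-seq counts the ends left where the enzyme DNase I cuts open chromatin. A peak is a stretch of open DNA, and a footprint is a short stretch inside it that was cut less than its surroundings. There were 2 libraries, numbered as biological replicates 1 and 2, which came from separate tissue samples under 1 shared donor entry. Both belong to 1 group, for which the labels name no treatment, and no other genotype, treatment group or tissue was measured. The labels do not say if they came from different animals, so part of their spread may be technical.

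B6CASTF1/J mice are first-generation offspring of C57BL/6J and CAST/EiJ parents. Reads of the CAST/EiJ chromosome set may map less well to the C57BL/6J reference, and the effect on these values was not tested. In whole tissue, a weak region can mean few cells in which it is open or low accessibility in many, which cannot be told apart. The peak lists held 137083 and 125000 peaks in replicates 1 and 2, and 96735 regions on chromosomes 1 to 19 and X held a peak of both libraries. Signal values were whole multiples of 0.00827 in replicate 1 and 0.00834 in replicate 2, which would correspond to 120.9 M and 119.9 M tags (M, mega) if each step is 1 tag. Of 12 genes that mark kidney cell types, 10 had an open promoter, among them Lrp2 and Slc34a1 of the proximal tubule and Umod of the thick ascending limb. The median signal of those 10 was 1.80, against 4.78 over all genes with an open promoter. Of the 10, 6 lay below the lower quartile of all such genes. The podocyte gene Nphs1 and the collecting duct water channel gene Aqp2 had no open promoter. Of 16 markers of other tissues, only the albumin gene Alb had an open promoter, at 0.455 and 0.292.

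Fatty acid oxidation shortens acyl chains by repeated rounds of dehydrogenation, hydration, a further dehydrogenation and thiolytic cleavage. Acyl-CoA synthetases first activate the fatty acid, and the carnitine shuttle then carries long chains into mitochondria. Peroxisomes shorten very long and branched chains. The proximal tubule of the kidney is known to draw much of its energy from this pathway, and genes of the pathway are known targets of the nuclear receptors PPAR alpha and ERR alpha.

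Every one of the 37 members had an open promoter, that is, a region found in both libraries within 500 bases of any annotated transcription start site (TSS) of a coding transcript. This held for 21 of 21 mitochondrial genes, 7 of 7 peroxisomal genes, 5 of 5 synthetase genes and 4 of the 4 others, whereas 13643 of the 21670 protein-coding genes had one (63.0%). Gene length moved with openness: among 6151 protein-coding genes with bodies of 15480 to 45783 bases, the interquartile range of the members, 74.4% had an open promoter, and all 19 members of that length did. CpG content moved with it too. Over all genes, the first TSS had a shared region in its window at 90.3% of CpG-rich and 32.6% of CpG-poor promoters, where CpG-poor means an observed to expected CpG ratio under 0.6 in 300 bases around that TSS. By this measure 15 members were CpG-poor, or 40.5%, against 54.3% of all genes. The first TSS had a region in 14 of the 15 CpG-poor members, among them Cpt1a, Acadm, Hadh, Ehhadh and Acox2, and in all 22 CpG-rich ones. The exception was Acsl6, which was open at internal start sites alone. CpG-poor promoters made up 6 of the 21 mitochondrial genes and 5 of the 7 peroxisomal genes.

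The strength of a promoter was taken as the deposited signal of its strongest shared region, averaged over the libraries. The median was 6.63 over the members and 4.78 over all 13643 genes with an open promoter, whose quartiles were 2.11 and 8.66. Of the members, 23 of 37 lay above the median of all open genes, 14 lay above the upper quartile and 4 below the lower one. The mitochondrial genes had a median of 7.25 and the peroxisomal genes one of 6.87. Both ranges overlapped widely, at 1.92 to 16.0 for the mitochondrial genes and 2.85 to 13.9 for the peroxisomal genes. The 5 synthetases had a median of 4.06 with the widest range of the 4 classes, 0.349 to 19.5, and the 4 other genes a median of 3.60.

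**Figure D1:**
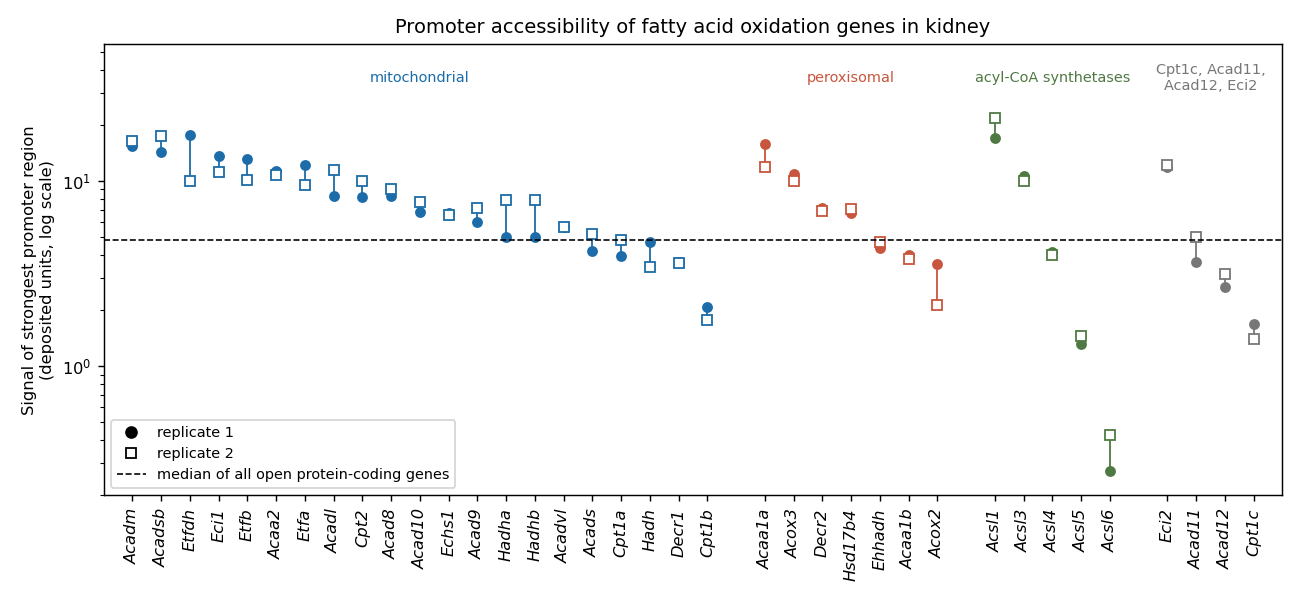
Signal of the strongest promoter region of each of the 37 members (deposited units, log axis) in replicate 1 (filled circles) and replicate 2 (open squares), by class, with each pair joined by a line and the dashed line at the median of all open protein-coding genes, 4.78. Most mitochondrial genes lie above the line, and the synthetases span the range between Acsl6 at 0.349 and Acsl1 at 19.5.

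Among the 37 members, the activation step held both the promoter with the highest mean and the weakest one. In replicate 1 alone, Etfdh at 17.8 was above Acsl1. Acsl1, the main long-chain acyl-CoA synthetase of oxidative tissues, had 17.1 and 22.0 in replicates 1 and 2 (19.5 ± 3.42, SD, n = 2), above 98.1% of open genes. Its region, at chr8:46470681-46471000 on mm10, ended just upstream of the first TSS and held 8 footprints found in both libraries, the most of any member. The stretch below, plus strand of the GRCm38.p6 genome (NCBI RefSeq) at chr8:46470691-46470990, is shown because its footprints cover much of the region, with every shared footprint in capitals.
Acsl1 promoter: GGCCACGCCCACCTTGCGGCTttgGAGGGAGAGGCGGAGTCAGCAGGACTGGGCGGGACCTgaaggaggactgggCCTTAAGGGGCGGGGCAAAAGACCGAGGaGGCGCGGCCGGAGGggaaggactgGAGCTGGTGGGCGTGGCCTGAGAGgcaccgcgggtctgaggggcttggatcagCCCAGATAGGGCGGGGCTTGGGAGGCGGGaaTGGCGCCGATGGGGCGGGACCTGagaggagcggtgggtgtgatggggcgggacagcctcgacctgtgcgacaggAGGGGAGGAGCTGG
The letters GGGCGG, the core bound by SP and KLF factors, recur in it. Over all members, GGGCGG on either strand was present in 26 of 36 promoter windows of 300 bases (72.2%) and lay in a shared footprint in 69.4%. Over the 12530 distinct strongest promoter regions of all genes, it was present in 68.2% and lay in a footprint in 51.9%. There are 36 windows for 37 genes because Hadha and Hadhb share one.

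Acsl1 also had a second open promoter, 19964 bases into the gene, with 4.64 and 3.21. Its annotated start sites 21795 and 60027 bases into the gene had no region and no base listed at a false discovery rate under 0.05 in either library. Acsl3, whose enzyme works at the endoplasmic reticulum and lipid droplets, had 10.7 and 10.0, and Acsl4, which prefers arachidonate, had 4.16 and 3.97. Both were stable between the libraries, with SDs of 0.497 and 0.134. Acsl5 was weak at 1.31 and 1.46, and its first TSS carried a separate region of 1.01 and 0.875. Acsl6, a synthetase known chiefly from brain, was weakest of all 37 members at 0.273 and 0.425 (0.349 ± 0.108, n = 2). This region lay at a cluster of internal start sites 11173 bases into the gene, held no footprint and exceeded the signal of only 1.52% of open genes. At the first TSS of Acsl6 no region was found.

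**Figure D2:**
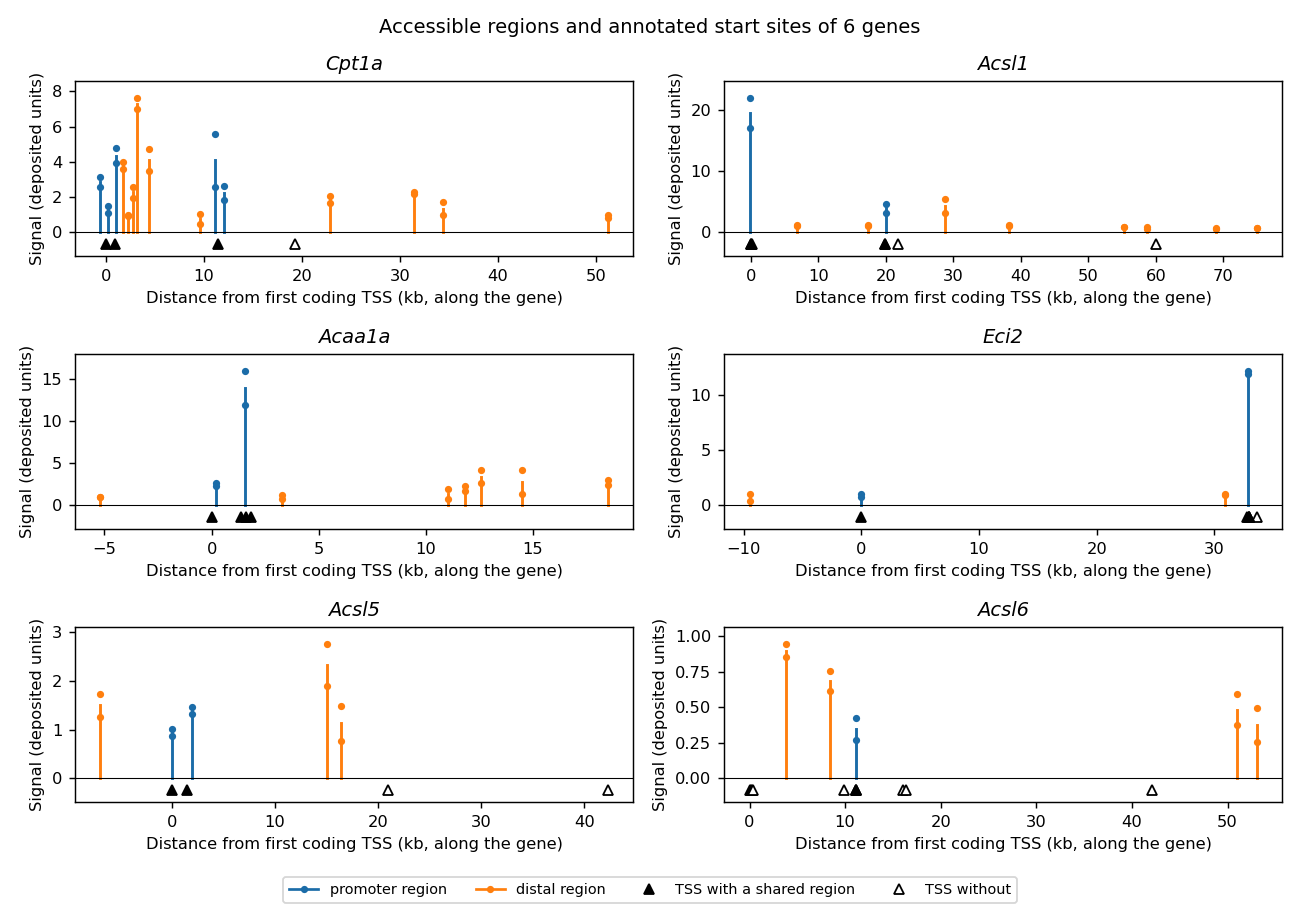
Signal (deposited units) of each shared promoter region (blue) and distal region (orange) of 6 genes against distance along the gene from its first coding TSS (kb), with points for the 2 libraries, lines to their mean, filled triangles for start sites with a region and open triangles for those without. In Eci2 and Acaa1a the strongest region sits at internal start sites, and Acsl6 has no region at its first TSS.

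The carnitine shuttle genes among the members differed at their promoters. Cpt1a lay between the quartiles of open genes, Cpt2 above the upper one, and Cpt1b and Cpt1c below the lower one. Cpt1a encodes the outer-membrane carnitine palmitoyltransferase found in liver and kidney and is known as the rate-limiting step of mitochondrial entry. It had 5 promoter regions, more than any other member, and the mean of none reached the median of all open genes. The strongest lay 987 bases inside the gene, near its second annotated TSS, at 3.91 and 4.78 (4.34 ± 0.613, n = 2). The region upstream of the first TSS had 3.12 and 2.59, the next, just past that TSS, had 1.12 and 1.51, and the one 12007 bases into the gene had 2.63 and 1.84. A region 11177 bases into the gene had 5.59 and 2.57. It differed by more than 2-fold between the libraries, so in replicate 1 alone it was the strongest of the gene and in replicate 2 alone the region at 987 bases was. The fourth annotated TSS, 19293 bases into the gene, had no region.

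The muscle form Cpt1b was the weakest mitochondrial member at 2.08 and 1.77, and the brain form Cpt1c had 1.69 and 1.40. Both were below the lowest library value of Cpt1a's strongest region. Cpt2, the inner-membrane enzyme that regenerates acyl-CoA, had 8.16 and 10.0 (9.09 ± 1.32, n = 2), above both values of the strongest Cpt1a promoter region.

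The strongest region of Cpt1a was not at an annotated coding TSS. A region in the first kilobases of its introns, chr19:3325401-3325680, centred 3207 bases into the gene, had 6.99 and 7.60 (7.29 ± 0.431, n = 2) with 6 shared footprints. Of the 77375 distal regions of the genome, 99.1% had a lower signal. It was the highest of 5 regions between 1737 and 4347 bases into the gene, of which the lowest had 0.910 and 1.00. The whole region is shown on the plus strand of GRCm38.p6, with shared footprints in capitals.
Cpt1a intronic region: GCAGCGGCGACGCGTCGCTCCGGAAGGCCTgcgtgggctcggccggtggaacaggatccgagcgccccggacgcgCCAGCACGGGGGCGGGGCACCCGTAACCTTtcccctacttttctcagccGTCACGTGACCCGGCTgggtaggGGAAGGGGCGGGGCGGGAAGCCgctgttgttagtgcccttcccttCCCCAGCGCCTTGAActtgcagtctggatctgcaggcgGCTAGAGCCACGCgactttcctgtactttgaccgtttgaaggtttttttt
The third footprint holds CACGTG, an E-box bound by basic helix-loop-helix factors. A neighbouring intronic region 1737 bases into the gene, with 3.59 and 4.00, held a CACGTG inside a shared footprint too. These and a later intronic E-box of Acsl1, in a region of 1.25 and 1.11, are aligned here on the plus strand with CACGTG in capitals and 14 bases on each side, at chr19:3325513-3325546, chr19:3324078-3324111 and chr8:46509243-46509276.
Cpt1a first E-box: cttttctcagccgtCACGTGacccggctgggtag
Cpt1a second E-box: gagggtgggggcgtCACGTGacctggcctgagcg
Acsl1 E-box: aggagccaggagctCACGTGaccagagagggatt
Among distal regions of the members, 14 of 133 windows of 300 bases held CACGTG (10.5%), against 6.72% of all distal regions. It lay in a shared footprint in 8 windows (6.02%), against 1.63%. The 8 belonged to Cpt1a with 2, and to Acads, Acox3, Acsl1, Cpt1c, Etfb and Hadha with 1 each. Footprints as such were also more frequent in the members' distal regions (81.2%) than in all distal regions (63.2%), and the median signal was higher, at 1.31 and 0.918. Their part in the E-box counts was not tested. All distal regions were counted at any distance from a gene, whereas the members' lay in gene bodies or within 10 kb. The effect of that difference was not tested either. At promoters CACGTG was found in 8.33% of members' windows and 10.6% of all windows.

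The acyl-CoA dehydrogenases, which take the first oxidative step, spanned a wide range. Acadm, the medium-chain enzyme, had 15.5 and 16.4 (16.0 ± 0.629, n = 2), the second highest mean of all members. Acadsb, which acts on short branched chains of isoleucine breakdown, had 14.3 and 17.4 (15.8 ± 2.24, n = 2), in a region shared with the promoter of its neighbour Ikzf5. The values of Acadm lay inside the spread of Acadsb, so the order of the pair is not resolved. In replicate 1, Etfdh at 17.8 and Acaa1a at 15.9 were above Acadm too. Acadm was below Acsl1 in both libraries, while Acadsb in replicate 2 exceeded Acsl1 in replicate 1.

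Acadl, the long-chain enzyme, had 8.28 and 11.4, in a region 436 bases inside the gene, while the region over its TSS had only 3.13 and 3.16. Acad8, an enzyme of valine breakdown, had 8.28 and 9.01, and Acad10 had 6.83 and 7.66. Acad9, known also for assembly of respiratory complex I, had 6.03 and 7.18. Acadvl, the very-long-chain enzyme, had 5.63 and 5.65, and Acads, the short-chain enzyme, had 4.18 and 5.17. The chain-length series thus showed no single level, with the medium-chain gene highest and the short-chain gene lowest of those 4 by strongest region. The region over the Acadl TSS was below that of Acads in both libraries. Outside the mitochondrial class, Acad11 had 3.63 and 4.98 and Acad12 had 2.67 and 3.13. The region of Acad8 was shared with the promoter of Thyn1, and that of Acad10 with the promoter of Brap.

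The promoter region of Acadm is shown because it was CpG-poor and still among the strongest. This is the minus strand, in the direction of transcription, at chr3:153944541-153944840 on GRCm38.p6, and capitals mark its shared footprints.
Acadm promoter: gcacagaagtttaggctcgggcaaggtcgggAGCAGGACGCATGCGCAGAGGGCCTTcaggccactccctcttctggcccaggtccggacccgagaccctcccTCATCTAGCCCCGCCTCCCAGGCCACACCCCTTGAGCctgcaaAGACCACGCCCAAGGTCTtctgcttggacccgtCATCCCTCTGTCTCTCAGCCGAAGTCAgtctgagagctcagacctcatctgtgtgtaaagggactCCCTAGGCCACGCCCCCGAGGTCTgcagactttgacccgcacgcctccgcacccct
The first footprint holds a match to GCGCNTGCG, the motif of NRF1, a factor known for nuclear genes of mitochondrial proteins. On either strand, 7 of the 36 member windows matched (19.4%), each with at least 1 match inside a shared footprint. Over all promoter regions 14.0% matched and 12.1% did so in a footprint. The 7 were Acadm, Acad10, Etfb, Etfdh, Hsd17b4, Acsl3 and Acad12. Of these 4 were mitochondrial, a share close to that among all members, 21 of 37. Capitals mark the match in 6 of them, with 14 bases on each side of the first match, to let the flanks be compared.
Acadm, plus strand, chr3:153944780-153944816: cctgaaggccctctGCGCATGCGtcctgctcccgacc
Acad10, plus strand, chr5:121660495-121660531: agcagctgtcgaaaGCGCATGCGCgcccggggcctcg
Acad12, plus strand, chr5:121618959-121618995: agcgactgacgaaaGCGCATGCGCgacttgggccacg
Etfdh, plus strand, chr3:79628872-79628908: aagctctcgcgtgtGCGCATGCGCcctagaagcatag
Etfb, minus strand, chr7:43444048-43444084: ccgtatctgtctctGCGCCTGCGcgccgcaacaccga
Acsl3, minus strand, chr1:78657774-78657810: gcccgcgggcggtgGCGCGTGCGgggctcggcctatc
Acad10 and Acad12, neighbouring genes on chromosome 5, were identical at 30 of the 37 bases. The NRF1 match shown lay in a shared footprint in both genes, and the promoter of Acad10 was the stronger in both libraries. A further match of Acad10 lay in another shared footprint, while a further one of Acad12 lay in none. AAGATGGCG, the motif of YY1, was found in a footprint of Eci1 and of Etfb, or 5.56% of members' windows. Of all promoter windows, 3.23% held it and 1.58% held it in a footprint. CCAAT of NF-Y was present in 41.7% against 38.3%, and CCGGAAGT of ETS factors in 5.56% against 7.84%. TGACGTCA, the cyclic AMP response element, and the TATA letters TATAAA were in no member promoter window, against 3.50% and 4.72% of all.

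Electrons from the dehydrogenases pass to the electron transfer flavoprotein and its dehydrogenase, and the 3 genes of this step all lay above the upper quartile of open genes. Etfdh had 17.8 and 10.0 (13.9 ± 5.50, n = 2), the largest difference between libraries of any member, at -0.83 on the log2 scale of replicate 2 over replicate 1. In replicate 1 it was the strongest member, and its region is shared with the promoter of 4930579G24Rik. Etfb had 13.1 and 10.2 (11.6 ± 2.07, n = 2), and Etfa had 12.2 and 9.54 (10.9 ± 1.90, n = 2). All 3 were lower in replicate 2, whereas over all open genes the median shift was 0.12 higher in replicate 2.

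The hydration, second oxidation and cleavage steps in mitochondria were of middle to high level. Eci1, which isomerises double bonds of unsaturated chains, had 13.7 and 11.2 (12.4 ± 1.76, n = 2). Acaa2, the mitochondrial thiolase, had 11.3 and 10.7 (11.0 ± 0.446, n = 2). The spreads of Acaa2 and Eci1 overlapped. Echs1, the short-chain hydratase, had 6.68 and 6.58, Hadh, the short-chain hydroxyacyl-CoA dehydrogenase, 4.68 and 3.44, and Decr1, the dienoyl-CoA reductase, 3.65 and 3.60. The means of Hadh and Decr1 lay below the median of all open genes.

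Hadha and Hadhb, the subunits of the trifunctional protein that handles long chains, face away from each other and share 1 promoter region, chr5:30154941-30155360. It had 4.98 and 7.94 (6.46 ± 2.09, n = 2), higher in replicate 2 by 0.67 on the log2 scale, and held 7 shared footprints. Their first start sites lie 86 bases apart, and the central 300 bases of the region, chr5:30155001-30155300, plus strand of GRCm38.p6, are shown with shared footprints in capitals.
Hadha and Hadhb promoter: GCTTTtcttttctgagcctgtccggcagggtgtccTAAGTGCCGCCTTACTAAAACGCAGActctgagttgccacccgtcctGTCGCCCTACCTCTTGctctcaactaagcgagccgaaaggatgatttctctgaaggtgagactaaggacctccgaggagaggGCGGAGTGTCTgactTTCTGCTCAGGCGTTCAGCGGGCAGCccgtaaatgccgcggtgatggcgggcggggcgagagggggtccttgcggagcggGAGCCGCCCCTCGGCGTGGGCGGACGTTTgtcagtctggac
Of the members, 9 of 37 had a strongest region that also lay in a promoter window of another protein-coding gene (24.3%), against 16.8% of open genes. Among them were Hadha, Hadhb, Acadsb, Acad8, Acad10, Etfdh, Acaa1a and Acsl3. For all 9 the signal cannot be assigned to 1 gene of the pair.

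Among the peroxisomal genes, Acaa1a, a 3-ketoacyl-CoA thiolase, was strongest with 15.9 and 12.0 (13.9 ± 2.79, n = 2). The region lay 1565 bases inside the gene among 3 internal start sites, in a window shared with Myd88, and held 7 shared footprints. The first TSS of Acaa1a had only 2.29 and 2.63. Its close paralogue Acaa1b had 3.98 and 3.79, lower than the internal Acaa1a region and higher than that at the first Acaa1a TSS in both libraries. Acox3, an oxidase of branched chains, had 10.9 and 9.98, and Acox2, an oxidase of bile acid intermediates and branched chains, was the weakest peroxisomal gene at 3.57 and 2.13. Ehhadh, the L-bifunctional enzyme, had 4.36 and 4.66, and Hsd17b4, the D-bifunctional enzyme, had 6.69 and 7.05. Hsd17b4 was the higher of this pair in both libraries. Decr2, the peroxisomal dienoyl-CoA reductase, had 7.14 and 6.90.

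Eci2, an enoyl-CoA isomerase known from both compartments, had 11.9 and 12.1 (12.0 ± 0.188, n = 2). This region lay at 5 start sites 32813 to 32972 bases downstream of the first TSS, and the first TSS itself had only 0.777 and 1.00. For 32 of the 37 members the strongest region was at the first TSS (86.5%), against 88.9% of open genes. The exceptions were Cpt1a, Acaa1a, Acsl5, Acsl6 and Eci2.

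Footprints found in both libraries were present in the strongest promoter region of 36 of 37 members (97.3%), all but Acsl6, against 92.6% of open genes. The median number was 4 in members and 3 in open genes. Mitochondrial promoters had a median of 4 footprints and peroxisomal ones a median of 2, while their signals overlapped. The number varied within the peroxisomal class between 2 for Acaa1b, Acox3, Ehhadh and Hsd17b4 and 7 for Acaa1a.

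The 2 libraries gave similar promoter values. The median log2 ratio of replicate 2 over replicate 1 was 0.03 over the members (SD 0.35) and 0.12 over all open genes (SD 0.41). No member differed by more than 2-fold in its strongest region, against 2.87% of open genes. After Etfdh, the largest differences were in Acox2 at -0.75, Hadha and Hadhb at 0.67 and Acsl6 at 0.64. Distal regions were less alike: 16 of the members' 133 differed by more than 2-fold (12.0%), against 14.2% of all distal regions.

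**Figure D3:**
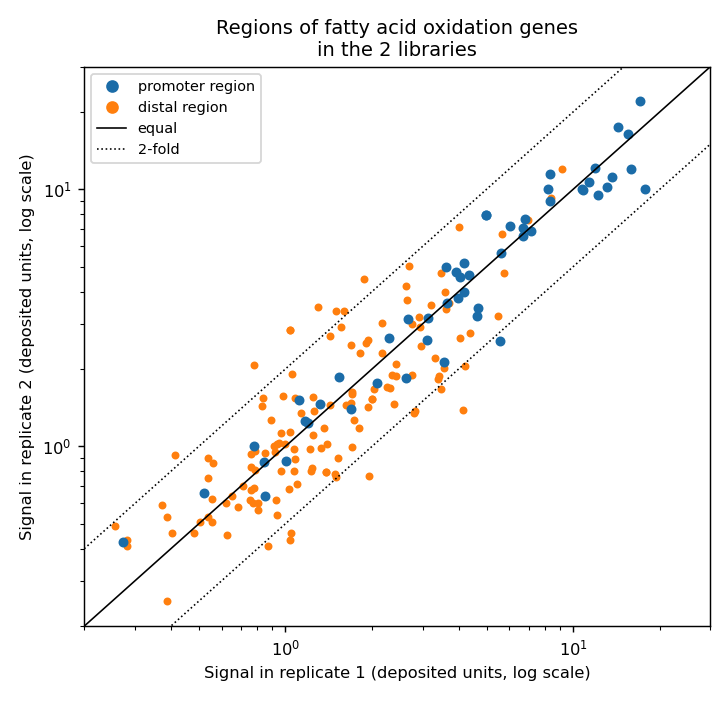
Signal of every shared region of the members in replicate 2 against replicate 1 (deposited units, log axes), promoter regions in blue and distal regions in orange, with the solid line for equal values and dotted lines for a 2-fold difference. Every strongest promoter region of a member lies between the dotted lines, and most points beyond the dotted lines are distal.

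Distal regions of a gene were shared regions outside the promoter windows of all protein-coding genes, in the gene body or within 10 kb of it. The set of all distal regions, used for comparison of signal, footprints and motifs, had no limit on distance from a gene. The members had a median of 3 per gene, against 2 over all protein-coding genes and 3 over those with an open promoter. Among genes of the middle length range, the median was 3 for members and 2 for all. No distal region was found for 4 members (10.8%), Cpt1b, Acadsb, Etfdh and Decr2, against 13.9% of genes with an open promoter, 20.4% of genes in the middle length range and 27.6% of all genes. The mitochondrial genes had a median of 2 and the peroxisomal genes one of 6, at median body lengths of 26875 bases for the mitochondrial and 26521 for the peroxisomal genes. With the shorter peak lists the medians were 2 in mitochondrial and 3 in peroxisomal genes, and in gene bodies alone 1 in mitochondrial and 2 in peroxisomal genes. With 1 library alone they were 3 to 4 in mitochondrial and 6 to 7 in peroxisomal genes. Between individual genes the classes overlapped, with 0 to 10 in mitochondrial and 0 to 7 in peroxisomal genes. The difference in number was smaller, as both medians were lower, when only regions nearest to a start site of the gene itself were counted. The medians were then 1 in mitochondrial and 3 in peroxisomal genes, a count added after the data were seen. The difference between the classes was not tested, since genes are not replicates.

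**Figure D4:**
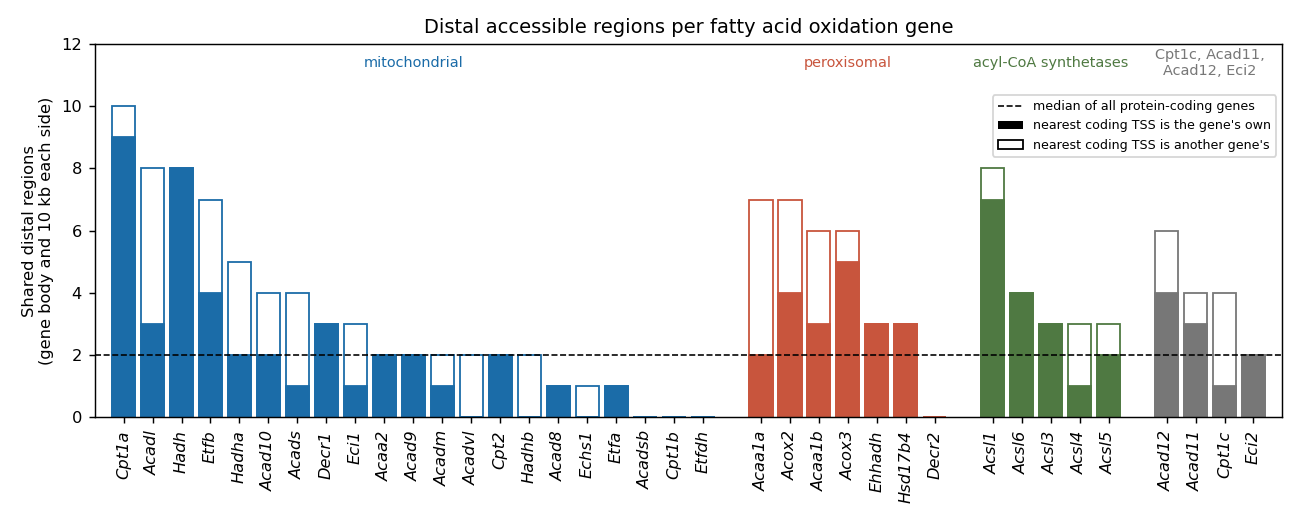
Number of shared distal regions within 10 kb of the gene body, or inside it, for the 37 members by class, filled where the nearest coding TSS is one of the gene itself and open where it is another gene's, with the dashed line at the median of all protein-coding genes, 2. Cpt1a has 10, and 4 of the 7 peroxisomal genes have 6 or 7.

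The members had 133 distinct distal regions in 136 gene-region pairs, of which 74 were intronic, 12 touched an exon, 24 were upstream and 26 downstream. In 89 pairs the nearest coding TSS was that of the member. Cpt1a had the most, 10, all intronic. Acadl, Hadh and Acsl1 had 8 each. In Acadl the strongest was intronic, 24586 bases into the gene, with 1.87 and 4.49, more than 2-fold apart. In Acsl1 the strongest was 28764 bases into the gene with 5.47 and 3.20. Hadh was the only one of these 3 in which every distal region was nearest to the gene itself, and its strongest, 710 bases into the gene, had 3.20 and 3.54.

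Etfb, Acaa1a and Acox2 had 7 each. In Etfb the strongest, 5.67 and 6.69, lay downstream inside Vsig10l, and in Acaa1a the strongest, 2.63 and 4.19, lay downstream inside Slc22a14, a gene of the organic ion transporter family. Of the 7 regions of Acaa1a, 5 were nearest to Xylb. In Acox2 the strongest, 3.56 and 2.01, lay downstream inside Kctd6. Acaa1b, Acox3 and Acad12 had 6 each, with strongest values of 5.77 and 4.74 upstream of Acaa1b, 1.30 and 3.48 in an intron of Acox3, and 4.01 and 7.13 in an intron of Acad12. The strongest distal region of any member was near Acadvl, at chr11:70021441-70021740, with 9.14 and 12.0 (10.5 ± 1.99, n = 2), higher than the promoter of Acadvl in both libraries. It lay inside Dlg4 and 2329 bases from a TSS of that gene, so its nearest gene is not Acadvl. A region near Cpt1c with 8.39 and 9.21, inside Tsks, was likewise above the Cpt1c promoter in both libraries. Which gene such regions act on cannot be read from these data.

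The motif of PPAR and HNF4 dimers, a direct repeat of AGGTCA with 1 base between (DR1), had no exact match in the members' promoter or distal windows. Over all regions an exact match was found in 0.0319% of promoter and 0.0982% of distal windows. With up to 2 mismatches, a search added after the first matches were seen, it was present in 16 of the 133 distal windows (12.0%, against 8.16% of all) and in a shared footprint in 4 (3.01%, against 1.52%). The 4 belonged to Hadh with 2, and to Acox3 and Acsl3. At promoters the figures were 11.1% against 3.09%, none in a footprint. TCAAGGTCA, the motif of ERR, was in 2 distal windows, of Acox3 and Hadh (1.50%, against 1.06%), and in no promoter window, where 0.176% of all promoters held it. In Acox3 it lay in a footprint and overlapped the DR1 match. With any second base (TNAAGGTCA), also searched later, it was in 3 distal windows (2.26%, against 2.69%). CAAAGTCCA, an HNF4 motif, was in 5 distal windows (3.76%, against 1.88%). The single unit AGGTCA was in 31.6% of members' distal windows, against 26.9% of all, and in a shared footprint in 2.26%, against 3.63%.

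The DR1 matches in footprints are shown with the match in capitals. Those of Hadh lie in introns 710 and 8130 bases into the gene, in regions of 3.20 and 3.54 and of 2.41 and 1.88. That of Acox3 is intronic in a weak region of 1.07 and 0.800, and that of Acsl3 lies upstream of the gene in a region of 1.94 and 1.43.
Hadh, plus strand, chr3:131271357-131271397: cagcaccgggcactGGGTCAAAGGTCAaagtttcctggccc
Hadh, minus strand, chr3:131263937-131263977: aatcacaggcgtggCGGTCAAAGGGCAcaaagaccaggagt
Acox3, minus strand, chr5:35593028-35593068: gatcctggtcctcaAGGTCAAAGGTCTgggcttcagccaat
Acsl3, minus strand, chr1:78656781-78656821: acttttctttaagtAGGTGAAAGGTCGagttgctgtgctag
A match is a description of letters. All matches were sought on both strands, and AGGTCA, the repeated unit, is also part of the ERR motif.

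Of 33 further genes of fatty acid uptake, acyl exchange, ketone and propionate metabolism and peroxisomal import, 33 had an open promoter, with a median signal of 6.54. The 5 strongest were Slc22a5, the carnitine importer, at 22.6 and 22.8 (22.7 ± 0.181, n = 2), the peroxisomal thioesterase Acot8 at 15.7 and 17.7, Mut, the methylmalonyl-CoA mutase, at 14.7 and 15.0, the fatty acid transport protein Slc27a1 at 15.5 and 12.0, and Mcee, the methylmalonyl-CoA epimerase, at 10.1 and 14.4. The regions of Acot8, Mut and Mcee also lay in a promoter window of another gene, so their signal cannot be assigned to 1 gene. That of Slc27a1 lay 1629 bases inside the gene and not at its first TSS. Slc22a5 was above every one of the 37 members in both libraries. The lowest of the 33 was Fabp1, a fatty acid binding protein known from liver and intestine, at 0.322 and 0.242.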

How the data were processed

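Kidney DNase-seq libraries of 1 group (2 biological replicates) were described, with no comparison of conditions. The authors deposited, per library, 2 peak lists with a signal value per peak, a list of false discovery rates (a q-value for runs of bases, up to 0.05) and footprints with a constant q-value level of 0.01, all on mm10 and per library, per the file headers of the accompanying list. For the aligner, peak caller and footprint caller, neither name nor version is given in the sources used here. The longer peak list was used. Overlapping peaks (at least 1 base) that held both libraries were joined, and each region took the highest deposited signal of each library. A footprint was shared where footprints of both libraries overlapped.

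Genes came from GENCODE M21 and sequence from GRCm38.p6, on which 99.9% of start codons read ATG. Promoter windows reached 500 bases to each side of any coding TSS. Members' counts and medians were set beside those of all genes, with no test. In 300-base windows centred on regions, 12 motifs were searched on both strands, and 2 looser searches (DR1 with up to 2 mismatches, ERR with any second base) were added after the first matches were seen. A match was in a footprint where at least 50% of its bases were. Named genes were all members, with both library values for the 10 strongest promoters and the 10 with most distal regions, and the 5 strongest related genes. The members and lists were chosen with earlier results of these data known. The scripts (Python 3.11.15, numpy 2.4.6, bedtools 2.31.1) were checked on made-up intervals. At 120.9 M and 119.9 M tags, if a signal step is 1 tag, the counting SD of a member's log2 ratio between libraries was 0.04 to 0.32. A kidney marker gene and a neighbouring gene are not reported here.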

Additional observations from a re-analysis of the deposited data

How the results depend on the processing

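All 37 promoters were open with windows of 100 or 2000 bases, with an overlap of at least 50% of the shorter peak and in either library alone. With the first TSS only, the shorter peak lists or the 50% of peaks with the higher signal, 36 were, all but Acsl6. The share of all genes lay between 56.5% and 67.4%. The median promoter signal was 6.68 to 7.18 with 1 library left out. Counts of distal regions depended on the settings by construction. Their median per member was 2 with the shorter lists, with the higher-signal 50%, in gene bodies alone and for regions nearest to the gene's own TSS (added after seeing the data), 8 with 50 kb on each side and 4 outside the gene's own promoter windows only. With 1 library left out it was 4 to 4. For mitochondrial genes the median was 1 in gene bodies alone, 7 with 50 kb, 3 outside own windows only, 1 for nearest regions and 3 to 4 with 1 library left out. For peroxisomal genes it was 3 with the shorter lists, 2 in gene bodies alone, 9 with 50 kb, 3 for nearest regions, 4 with Acad11 and Eci2 counted as peroxisomal and Acad12 as mitochondrial, and 6 to 7 with 1 library left out. With the first TSS only, Cpt1a had 2.86, Acaa1a 2.46, Acsl5 0.942 and Eci2 0.889, with windows of 100 bases Acadl had 3.15 and Acsl5 0.942, with 2000 bases Acsl6 had 0.685, and in replicate 1 alone Cpt1a had 5.59. With both libraries kept, the other 212 of 219 promoter signals moved by no more than the SD between the libraries. Where a setting only filtered peaks and kept the strongest one, its deposited signal stayed the same by construction. Settings in which Acsl6 had no open promoter gave no value for it.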
